A study of Mus musculus with 6 samples.

Results

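The microRNAs of the Dlk1-Dio3 imprinted cluster were examined in exosomes of RAW264.7 cells, an established mouse macrophage line. Members were chosen by name alone: a mature microRNA whose number is among 52 numbers known from this cluster, with each sequence counted once and names ending in -p5 or -p3 left out. Of the 2704 distinct sequences listed by the authors, 19 were members, and they carried 15 of the 52 numbers. The cells were kept on titanium disks with a micro-/nano- texture (3 libraries, called micro-/nano- here) or on smooth titanium disks (3 libraries), in medium that the labels call free of exosomes. The small RNA of the exosomes in the culture supernatant was sequenced. As labelled, the 2 groups differ in the disk surface alone. The study states in general that its experiments were done independently at least 3 times, but not whether this covers the sequencing, so the libraries of 1 disk type may or may not be separate cultures. The p-values therefore cover the variation among these libraries only, be it technical or biological.

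The Dlk1-Dio3 region is an imprinted domain in which the protein-coding genes are expressed from the paternal chromosome, and the non-coding RNAs Meg3, Rian and Mirg and the microRNAs from the maternal one. The microRNAs form an upstream group, part of which lies antisense to the retrotransposon-like gene Rtl1, and the miR-379/miR-410 group further downstream. They are known from embryo, placenta and brain. A microRNA finds its targets mainly through the seed, bases 2 to 8 from its 5′ end, so a change of a base or of the start within these positions alters what it can pair with.

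The members on which the results turn are shown as the authors listed them, 5′ to 3′, with the seed in capitals. The prefix of a name is the species whose entry the authors' program used (rno rat, bta cattle, cpo guinea pig, mmu mouse), and L or R marks a start or an end that differs from that entry.
bta-miR-380-3p: tATGTAATgtggtccacgtct
rno-miR-127-3p_R-2: tCGGATCCgtctgagcttgg
cpo-miR-412-5p_R-3: tGGTCGACcagttggaaagt
rno-miR-411-5p_L+1: aTAGTAGAccgtatagcgtacg
rno-miR-379-5p_R-1: tGGTAGACtatggaacgtag
rno-miR-369-3p: aATAATACatggttgatcttt
rno-miR-493-5p_R-1: tTGTACATggtaggctttcat
rno-miR-493-3p: tGAAGGTCtactgtgtgccag
rno-miR-409a-3p_L+2R-3: cGAATGTTgctcggtgaac
rno-miR-136-3p: cATCATCGtctcaaatgagtct
These members carry 10 different seeds. Among all 19, a seed was shared only by the pair of 3′ end variants named miR-299b-3p.

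Each sequence was searched in the mouse hairpins of RefSeq (GRCm38.p6). Of the 19 members, 13 matched exactly, each in a hairpin between Dlk1 and Dio3 on chromosome 12, and 6 did not. All 19 were closest to the hairpin of their own number. The mouse sequences that differ from the listed ones are given for comparison, with the seed in capitals.
mmu-miR-380-3p: uAUGUAGUaugguccacaucuu
mmu-miR-412-5p: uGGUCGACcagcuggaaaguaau
mmu-miR-493-3p: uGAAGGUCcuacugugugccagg
mmu-miR-411-5p: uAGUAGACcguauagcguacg
mmu-miR-409-3p: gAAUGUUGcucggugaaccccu
mmu-miR-136-3p: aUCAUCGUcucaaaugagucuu
In the substitutions that follow, the mouse base comes first, then the position counted from 1 at the 5′ end of the listed sequence, then the listed base. bta-miR-380-3p differed from the mouse hairpin at G7A, A9G and A18G, the first of which lies in the seed. miR-412-5p differed at C12T, outside the seed. The listed miR-493-3p lacked 1 base of the mouse hairpin. bta-miR-323b-3p, a low sequence, differed from the mouse hairpin of miR-323 at T5A and A16G, and the 2 variants of miR-299b-3p differed from Mir299a only at their last base (C20A and G19C). A sequence that matches the mouse hairpin can also match the hairpin of another mammal, and no other genome was searched here.

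Among the exact matches, 4 sequences began 1 base before the mature form annotated in RefSeq: miR-411-5p, miR-409a-3p, miR-136-3p and the low miR-382-3p. Their seeds therefore differed from the annotated ones. By position, the 13 exact matches fell in the known groups. The upstream sequences miR-127-3p (chr12:109592888-109592907), miR-433-3p (chr12:109591781-109591802) and miR-136-3p (chr12:109595365-109595386) lie on the plus strand opposite an exon of Rtl1 (GENCODE M21, GRCm38). miR-493-5p (chr12:109580243-109580263) lies upstream of them, in no annotated gene other than its own. miR-379-5p (chr12:109709065-109709084), miR-411-5p (chr12:109710189-109710210) and miR-323-3p (chr12:109712558-109712578) lie between Rian and Mirg. miR-409a-3p and miR-369-3p (chr12:109743466-109743486) lie in introns of Mirg.

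**Figure D1:**
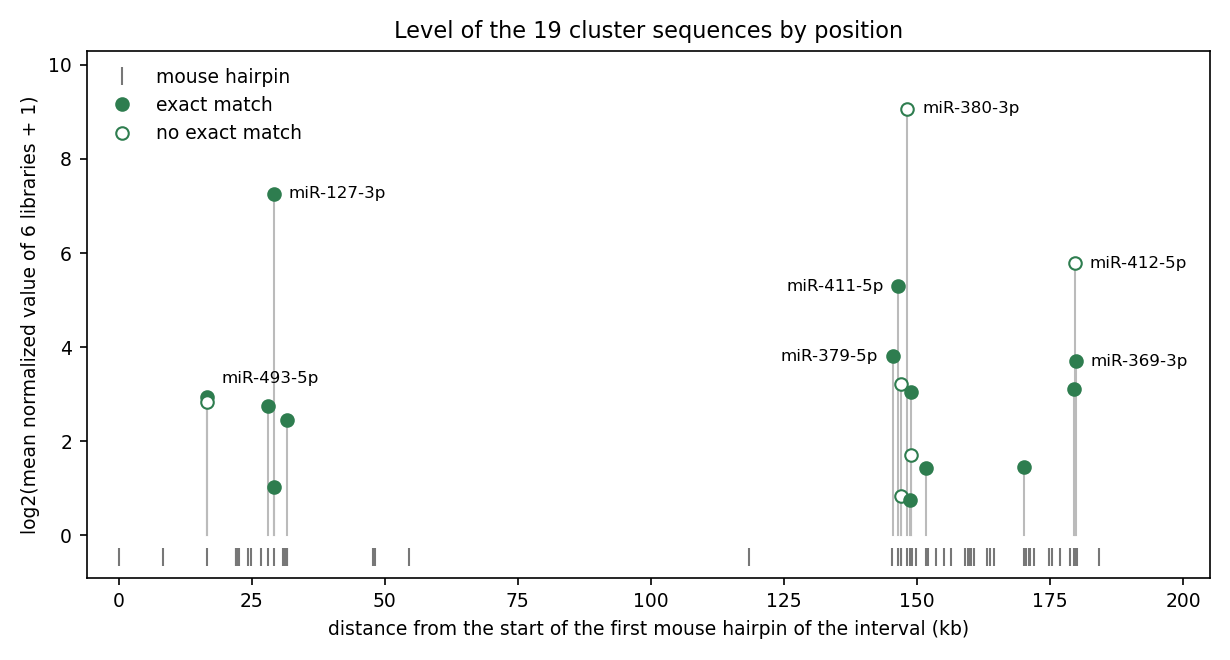
Level of the 19 cluster sequences by their place among the mouse hairpins. The x axis is the distance in kb from the start of the first hairpin between Dlk1 and Dio3, the y axis is log2(mean normalized value of the 6 libraries + 1), filled points match a mouse hairpin exactly, open points do not, and short bars are 57 of the 58 hairpins (the last lies beyond 200 kb). miR-127-3p stands out in the upstream group and miR-380-3p, without an exact match, in the downstream one.

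The values are the authors' normalized signal. In each library 89.2% to 93.8% of the listed values were whole multiples of 1 smallest step, within 0.02 of a step, and this step was taken as the value of 1 read. On that scale the libraries held 163845 to 604081 reads. Sequences under about 5 reads were mostly not listed, which puts the limit between 2.33 (smooth replicate 2) and 7.77 (micro-/nano- replicate 2). A listed 0 may be a level below it. Of the myeloid microRNAs, 5 of 6 were listed. Together they made up 0.0967% to 0.202% of the normalized total on micro-/nano- disks and 0.20% to 0.267% on smooth disks, with miR-223-3p at 0 in micro-/nano- replicates 1 and 3 and miR-511-3p at 0 throughout. Erythroid microRNAs (2 of 3 listed) made up 0.0150% to 0.0355% over all libraries. Of the neural list 1 of 2 was listed (miR-124-3p, at 2.17 in smooth replicate 2 alone) and of the muscle list 1 of 3 (miR-133a-3p, at 2.33 in the same library), with miR-9-5p, miR-1a-3p and miR-206-3p at 0 in all 6.

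The cluster was a small part of the listed small RNA signal on both disks. Its 19 sequences summed to 0.445%, 0.262% and 0.317% of the normalized total in micro-/nano- replicates 1 to 3, and to 0.290%, 0.250% and 0.473% in smooth replicates 1 to 3. The means were 0.341% ± 0.0940 and 0.338% ± 0.119 (SD, n = 3 libraries each), and the ranges of the groups overlapped. As a score over chosen members, the sum was given no test. The highest sums came from micro-/nano- replicate 1 and smooth replicate 3, which are also the libraries with the lowest normalized totals (210677 and 234407, against 272331 to 281542 in the others).

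Without micro-/nano- replicate 1, the difference between the means turned from 0.00331 to -0.0486 percentage points. It was also negative without smooth replicate 1 (-0.0207) and without smooth replicate 2 (-0.0405), and without smooth replicate 3 it was 0.0711. As a share of the total, the same pair of libraries was highest for the mesenchymal list, miR-122-5p and the cattle-named sequences. It was not for the myeloid, erythroid, neural and muscle lists. The mesenchymal list, of which 5 of 6 were listed and miR-145a-5p was at 0, reached 0.338% and 0.348% in them and 0.194% to 0.280% in the other 4. The liver microRNA miR-122-5p reached 1.59% in each of them and 0.801% to 1.25% in the others. The 43 other sequences with a cattle name and no exact match in a mouse hairpin reached 0.160% and 0.136%, against 0.0857% to 0.121%. All these shares are divided by totals that were lowest in this pair, so they do not show that the values rose together. In normalized value, miR-122-5p was 3351 in micro-/nano- replicate 1, below 3491 in micro-/nano- replicate 2, and was 3726 in smooth replicate 3. The cluster's summed value was still highest in this pair. The mesenchymal and cattle-named sums were compared as shares only. The study's complete medium held fetal bovine serum, while the labels call the medium of these cultures free of exosomes. The part of serum or of other cell types in the cluster's values was not tested. The myeloid list was highest in smooth replicate 1, at 0.267%, and the erythroid list in micro-/nano- replicate 3, at 0.0355%.

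**Figure D2:**
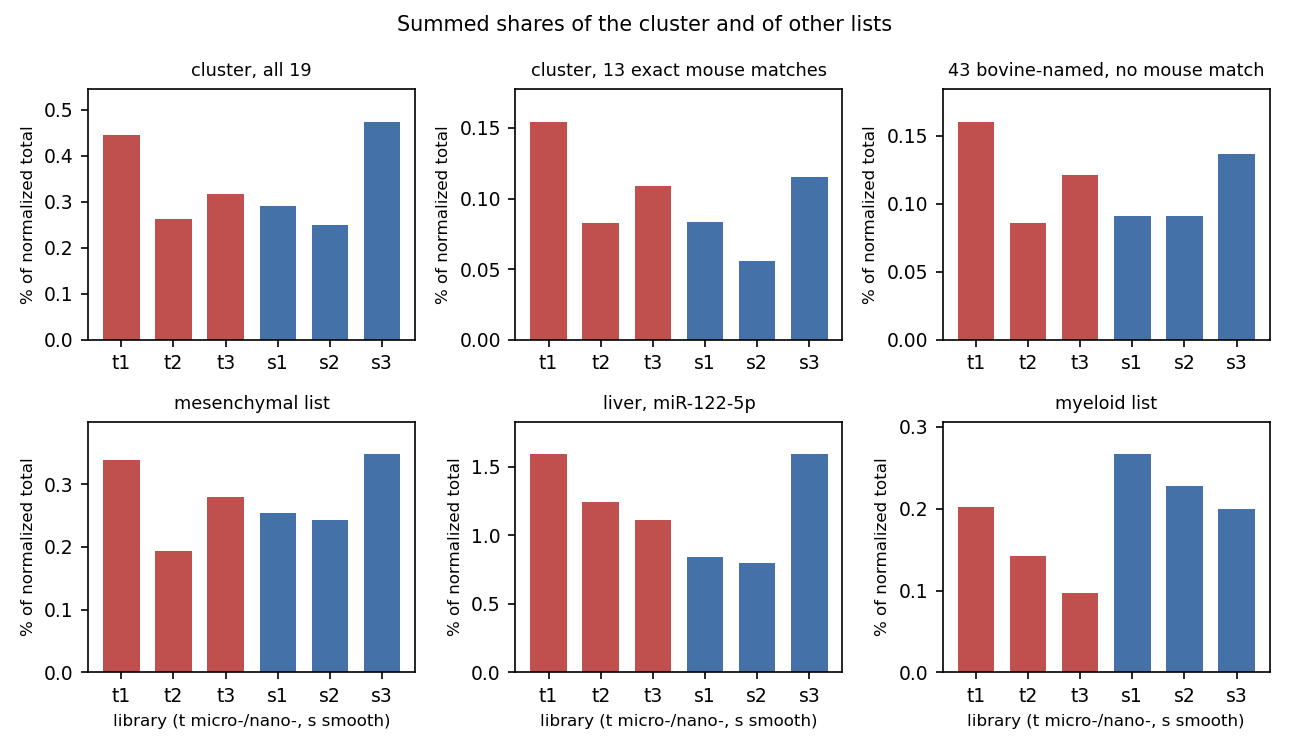
Summed share of the cluster and of 5 other sums in each library, as percent of the normalized total (y axis, from 0), with micro-/nano- in red and smooth in blue. In the top row and for the mesenchymal list and miR-122-5p, micro-/nano- replicate 1 and smooth replicate 3 are the highest 2 libraries, while the myeloid list is highest in smooth 1.

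Most of the cluster's signal was a single sequence that differs from the mouse one. bta-miR-380-3p had normalized values of 540, 402 and 518 on micro-/nano- disks and of 518, 482 and 752 on smooth disks, which are 259 to 1035 reads per library. It ranked 43 of all 2704 sequences by mean value and made up 62.3% of the cluster's mean signal. The groups overlapped, and smooth replicate 3 stood highest. Its log2 fold change, micro-/nano- over smooth, was -0.25 (standard error 0.28, 95% interval -0.81 to 0.32, adjusted p = 0.823 from limma). Without smooth replicate 3 it was -0.05.

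The 13 exact mouse matches together held 0.154%, 0.0826% and 0.109% of the normalized total on micro-/nano- disks, and 0.0831%, 0.0560% and 0.115% on smooth disks. Their part of the cluster was 31.6% to 34.7% on micro-/nano- disks and 22.4% to 28.7% on smooth disks, and these ranges did not overlap. bta-miR-380-3p alone took 54.9% to 58.8% of the cluster on micro-/nano- disks and 65.6% to 68.5% on smooth disks. These parts were compared after the values had been seen and were given no test.

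**Figure D3:**
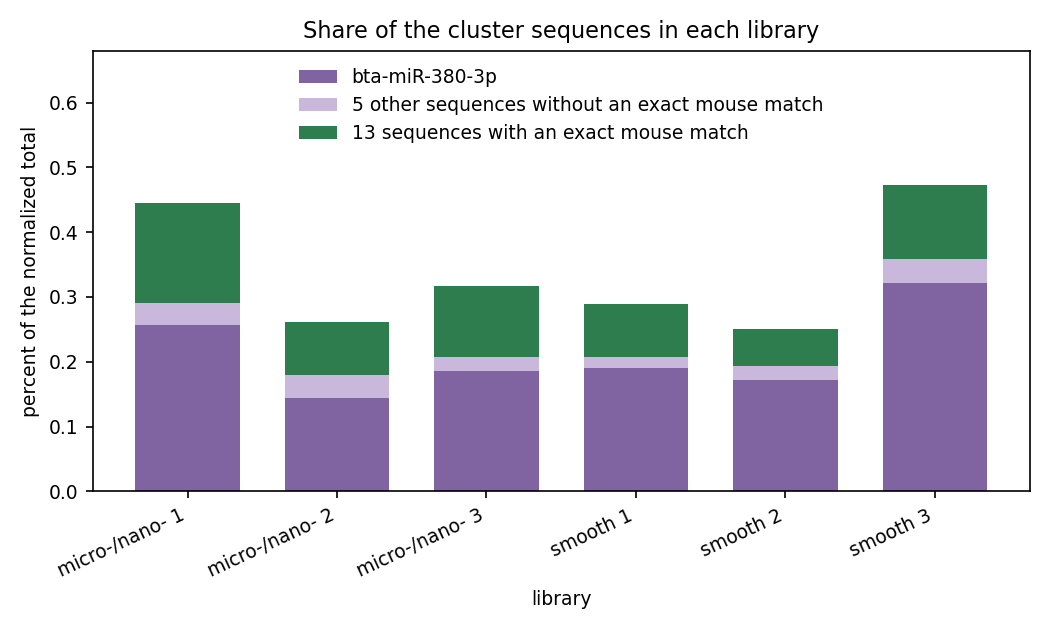
Share of the cluster sequences in each library, as percent of the normalized total (y axis, from 0), split into bta-miR-380-3p, 5 other sequences without an exact mouse match and 13 with one. The largest block is bta-miR-380-3p in all 6 libraries, and the bars are highest in micro-/nano- replicate 1 (0.445%) and smooth 3 (0.473%).

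In the upstream group, miR-127-3p was the most abundant sequence. It is antisense to Rtl1 and known in mouse to direct cleavage of its transcript. Its values were 208, 153.8 and 161 on micro-/nano- disks (174 ± 29.7, SD, n = 3) and 111, 95.5 and 183 on smooth disks (130 ± 46.7, SD, n = 3), from at least 99 reads per library. Smooth replicates 1 and 2 lay below every micro-/nano- library, and smooth replicate 3 lay among them. The log2 fold change was 0.46 (standard error 0.36, 95% interval -0.27 to 1.19, adjusted p = 0.823 from limma). Without smooth replicate 3 it was 0.74 (unadjusted p = 0.0463 and adjusted p = 0.801 from limma), and without smooth replicate 2 it was 0.27.

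The ratio of bta-miR-380-3p to miR-127-3p within a library does not depend on the scaling of the libraries. It was 2.59, 2.62 and 3.22 on micro-/nano- disks and 4.64, 5.05 and 4.11 on smooth disks, so the groups did not overlap. Of the 6 ratios among the 4 members listed in all libraries, this was the only one without overlap. These 2 members made up 62.3% and 17.7% of the cluster's mean signal, so the ratio is not separate from the parts of the cluster given above. How often such ratios are without overlap over all sequences was not computed. The ratio was chosen after the values had been seen and was given no test.

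The other upstream members were low. miR-493-5p, which the study also named, was listed at 0, 0 and 5.25 on micro-/nano- disks and at 10.7, 10.7 and 13.3 on smooth disks, or at most 5 reads against 11 to 23. It was the only tested member whose groups did not overlap, with all smooth values higher and all above the limit of 7.77 (exact permutation test, two-sided, p = 0.1, the smallest that 3 libraries against 3 allow). Its log2 fold change was -2.76 (standard error 1.505, 95% interval -5.84 to 0.31, unadjusted p = 0.0765 and adjusted p = 0.823 from limma). Without micro-/nano- replicate 3, the only one of its disk that lists it, the value was -3.65 (unadjusted p = 0.0386 from limma). It also depends on the pseudocount of 1: it was -3.41 with 0.5 and -1.38 with 5. The study listed miR-493-5p among its differentially expressed microRNAs, as down, while limma on all 6 libraries did not reach an unadjusted p under 0.05. Since the study picked miR-493-5p on these libraries, its separation is not independent evidence.

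The opposite arm of the same hairpin showed no such order. miR-493-3p was listed at 7.72, 12.4 and 0 on micro-/nano- disks and at 4.13, 6.52 and 6.03 on smooth disks. Its groups overlapped, and its log2 fold change of -0.40 (standard error 1.47) ran against its means of 6.71 and 5.56. As given above, the listed sequence of this arm lacks a base of the mouse hairpin, while that of miR-493-5p matches it. miR-433-3p, which is also antisense to Rtl1, was listed at 6.43, 7.77 and 5.25 on micro-/nano- disks and at 7.43, 0 and 7.23 on smooth disks. For miR-136-3p the values were 7.72, 7.77 and 0 against 11.6, 0 and 0. Neither pair of groups was separate.

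In the miR-379/miR-410 group, miR-411-5p and miR-379-5p come from neighbouring hairpins. miR-411-5p had values of 43.7, 21.7 and 74.6 on micro-/nano- disks and of 46.2, 12.6 and 30.1 on smooth disks, a log2 fold change of 0.65 (standard error 0.65, 95% interval -0.68 to 1.98, adjusted p = 0.823 from limma). miR-379-5p had 29.6, 7.77 and 19.97 on micro-/nano- disks and 12.4, 8.39 and 0 on smooth disks. The log2 fold change of miR-411-5p was 0.15 without smooth replicate 2, 0.23 without micro-/nano- replicate 3, 1.05 without smooth replicate 1 and 1.10 without micro-/nano- replicate 2. For both, the highest 3 libraries were micro-/nano- replicates 1 and 3 and smooth replicate 1, and the groups overlapped. The log2 fold change of miR-379-5p was 1.83 (standard error 1.24), but 0.67 without smooth replicate 3, where it was listed at 0.

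miR-369-3p, known in human cells to act on the AU-rich element of TNF mRNA, had values of 29.6, 10.9 and 9.46 on micro-/nano- disks and of 7.43, 14.9 and 0 on smooth disks. Its log2 fold change was 1.61 (standard error 1.27), and 0.43 without smooth replicate 3. miR-412-5p, next after miR-127-3p by mean value, had 56.6, 77.7 and 39.9 on micro-/nano- disks and 30.6, 46.1 and 73.5 on smooth disks. The spread within each disk exceeded the difference between the means of 58.1 and 50.1. The groups overlapped, as they did for the 3 remaining tested members of this stretch.

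These 3 were low and each was at 0 in at least 1 library. miR-299b-3p was listed at 7.72, 4.66 and 14.7 on micro-/nano- disks and at 10.7, 11.7 and 0 on smooth disks. miR-409a-3p, with the shifted start, had 0, 7.77 and 9.46 on micro-/nano- disks against 7.43, 5.59 and 15.7 on smooth disks. For miR-323-3p the values were 0, 14.0 and 12.6 against 0, 3.73 and 13.3. The zeros fell in smooth replicate 3 for miR-299b-3p, in micro-/nano- replicate 1 for miR-409a-3p and in the first replicate of both disks for miR-323-3p, so no library was at 0 for all 3.

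**Figure D4:**
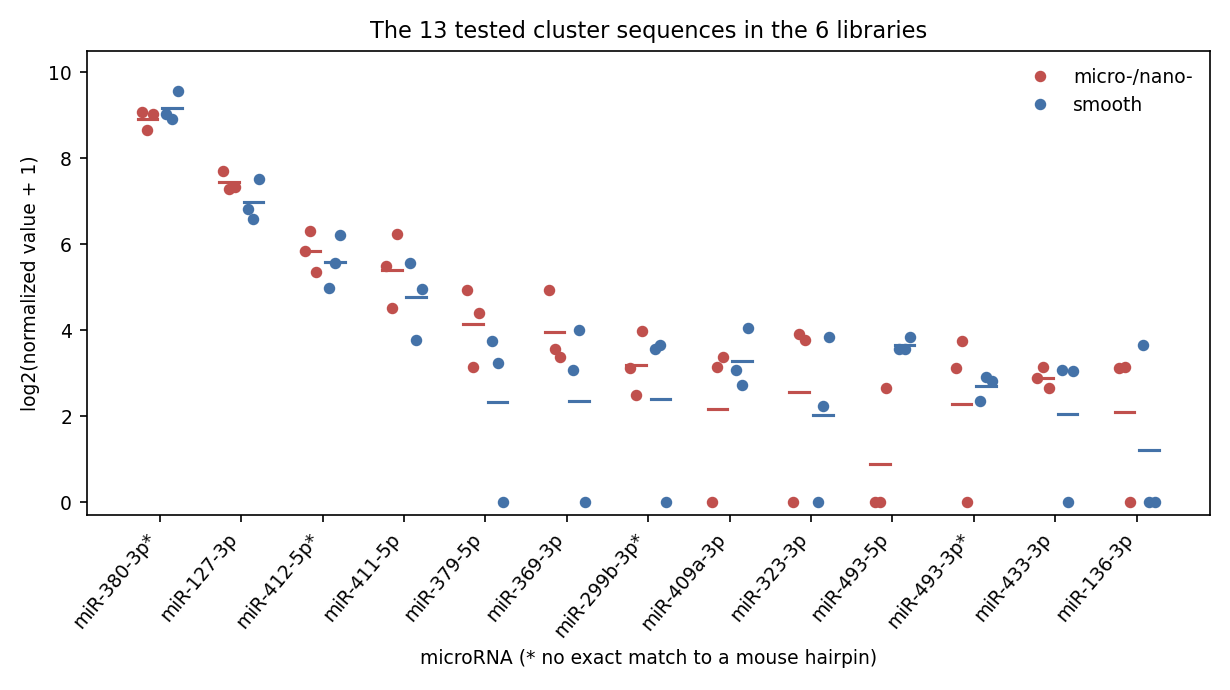
Values of the 13 tested members in the 6 libraries on a log2(normalized value + 1) scale (y axis), with 1 point per library, a bar at the mean of each group, micro-/nano- in red and smooth in blue. The groups are separate only for miR-493-5p, and 9 of the 13 have at least 1 library at 0.

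The test across the table was limma on log2(value + 1) for the 536 sequences whose values sum to at least 20, of which 13 were members. No member had an adjusted p under 0.05 from limma, as was the case for 0% of all tested sequences, and the smallest adjusted p over all sequences was 0.823. At an unadjusted p under 0.05, no member was higher, beside 0.56% of all tested sequences, and none was lower, beside 1.68%. A linear model without moderation gave 1 of 13 members lower at an unadjusted p under 0.05, miR-493-5p, beside 2.05% of all tested sequences, and none higher, beside 1.12%. After adjustment it called no member, beside 0.187% of all. By overlap of the groups, 1 of 13 members was lower on micro-/nano- disks and none was higher, while 5.04% of all tested sequences were lower and 1.87% higher.

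Of the 13 tested members, 9 had a log2 fold change above 0 and 4 below, with a median of 0.53 against 0.01 over all 536 tested sequences, of which 50.6% were above 0. With 1 library left out, the members above 0 ranged from 6 of 12 (without smooth replicate 1) to 9 of 13 (without micro-/nano- replicate 3). The members that were listed in all 6 libraries had standard errors of 0.28 to 0.65, and those with a 0 had 1.24 to 1.68. A p that misses the threshold does not show equal levels.

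**Figure D5:**
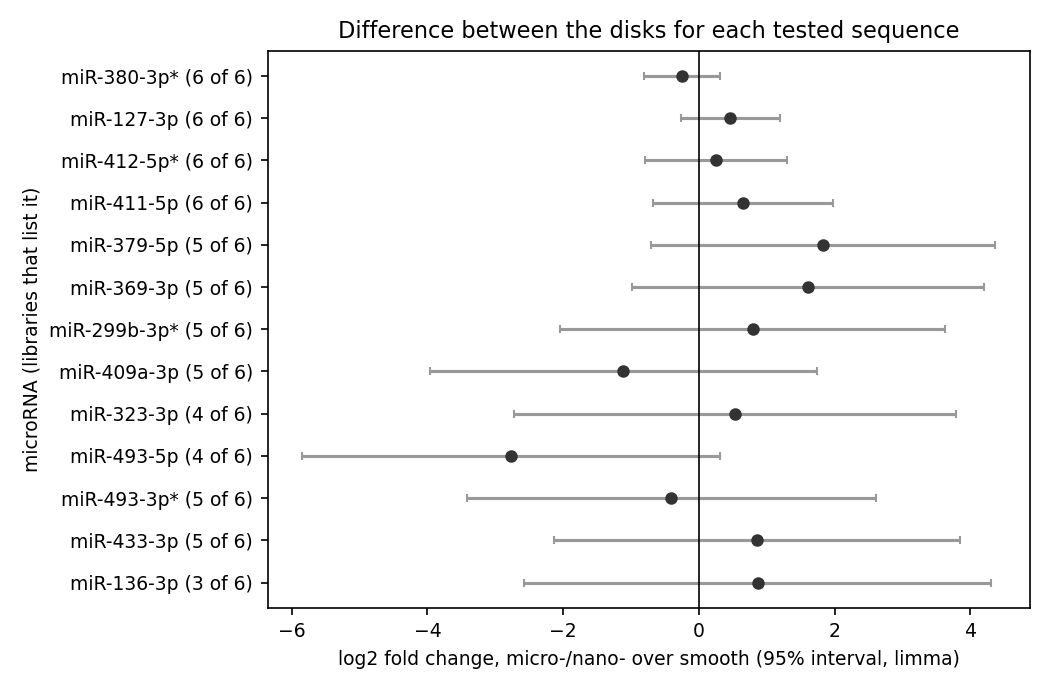
Log2 fold change of each tested member, micro-/nano- over smooth (x axis), with its 95% interval from limma, and the number of libraries that list it in parentheses. All 13 intervals include 0, and they are widest for members listed at 0 in some libraries.

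The 6 members that did not reach the sum of 20 were listed in at most 2 libraries each, at no more than 8.44 or 9 reads. miR-382-3p and miR-494-3p were listed in 2 smooth libraries each and at 0 on micro-/nano- disks, and miR-1197-3p, the only member with a mouse name, in smooth replicate 1 alone. Their values in smooth replicate 2 (3.26 and 2.80) and that of miR-1197-3p (4.13) lie below the limit of every micro-/nano- library (5.25 to 7.77). Their other values, 7.23 in smooth replicate 3 and 7.43 in smooth replicate 1, lie between these limits. miR-127-5p, the other arm of miR-127-3p, was listed at 6.31 in micro-/nano- replicate 3 and at 0 elsewhere, and the second miR-299b-3p variant at 4.66 in micro-/nano- replicate 2. bta-miR-323b-3p was listed in 1 library of each disk. Per library, 10 to 14 members were listed (12 ± 1.73 on micro-/nano- disks and 12.7 ± 1.53 on smooth disks, SD, n = 3). Counted from 7.77 upward, the highest limit of the 6 libraries, they were 8.67 ± 2.52 and 8 in each smooth library, so the order of the groups turned.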

How the data were processed

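TruSeq small RNA libraries of exosomes from RAW264.7 supernatant (3 per disk) were sequenced by the authors, who trimmed the 3′ adapter, took reads of 18 to 26 nt and filtered out those of mRNA, repeats and other RNA families. The program ACGT101-miR assigned the names and scaled the libraries. Each deposited value is thus a scaled signal of 1 sequence in 1 library. Its scaling factor, the miRBase release and the build are unknown here. Of 2731 rows, 1 further line being empty, rows with the same sequence and values were counted once. The test, laid out for either counts or normalized values, was limma with a mean-variance trend on log2(value + 1), sum of at least 20, Benjamini-Hochberg over all 536 sequences. It was also run on data simulated from these libraries with known changes added, which does not show its power for the low members. Single values were compared by exact permutation, two-sided.

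Named with values were the 12 members with the highest mean, those with an unadjusted p under 0.05 or separate groups, and those the study names. Any other was singled out with its values in view. The members and lists were chosen with earlier results of these data known. Sequences were compared with RefSeq hairpins (GRCm38.p6) and GENCODE M21 transcripts. Alternatives were other pseudocounts, filters and scalings, a replicate block, no moderation, summed isomiRs and each library left out. The fits used limma 3.58.1 in R 4.3.3, and the rest SciPy 1.17.1, pandas 2.3.3, NumPy 2.4.6 and Matplotlib 3.10.9 in Python 3.11.15.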

Additional observations from a re-analysis of the deposited data

Results flagged for a closer look

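A sequence named mir-134-p5, which carries a number of the cluster but has a name ending that the choice of members leaves out, was listed at 7.36 (7 reads) in micro-/nano- replicate 3 and at 0 in the other 5 libraries. It was singled out because it lies outside the members compared and stands above all smooth libraries. It matches the mouse hairpin Mir134 exactly. The only other such sequence, mir-431-p3, was listed at 8.44 (7 reads) in smooth replicate 3 alone.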

How the results depend on the processing

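There were 10 alternatives other than leaving out a library (1 of them, a fit to microRNA-named sequences, was added after seeing the data). In them no member had an adjusted p under 0.05 (smallest 0.494), and the sign of the log2 fold change stayed for every member tested. The filters, the replicate block, no moderation and the fit to microRNA-named sequences leave a member's log2 fold change unchanged, so they could not turn its sign. Summed isomiRs changed it for miR-299b-3p alone. The sign was otherwise open to change only under the other pseudocounts and scalings. At an unadjusted p under 0.05, no filter on low values gave 1 of 19 members lower, beside 0.962% of 2704 sequences, and the model without moderation 1 of 13, beside 2.05% of 536. With sums of at least 60, miR-493-5p drops out and 0 members were separate and lower. With each library left out in turn, members at an unadjusted p under 0.05 numbered 0 to 1 higher (beside 0.207% to 4.18% of all sequences) and 0 to 1 lower (0.794% to 2.8%), separate members 0 to 1 higher (2.58% to 12.9%) and 1 in all 6 fits lower (6.53% to 15%). The difference in the cluster's share ranged from -0.0486 to 0.0711 percentage points, and that in members listed from -1.5 to 0.333. The sign turned with a library left out in 7 of 75 fits, over the ranges -0.056 to 0.56 for miR-412-5p, -0.41 to 1.42 for miR-299b-3p, -0.48 to 1.81 for miR-323-3p, -1.13 to 0.74 for miR-493-3p and -0.17 to 1.37 for miR-433-3p. The cause was not tested. The cluster's difference was 0.0354 without bta-miR-380-3p and, chosen after seeing the data, 0.0307 for exact mouse matches.

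Same-numbered libraries of the 2 disks showed no shared deviation (r = -0.166, 0.105 and -0.0021 over 252 sequences listed in all libraries). Differently numbered libraries gave r from -0.25 to 0.296. With so few libraries, these values cannot show whether the numbers pair them. With the replicate number as a block, 0 members passed at an adjusted p under 0.05 and 0 in either direction at an unadjusted p under 0.05. Depth limits the low members: all but the 4 listed in every library rest on at most 32 reads per library.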
